A study of Mus musculus with 14 samples.

Results

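The 35 genes described here encode regulators of pre-mRNA splicing and proteins of nuclear speckles, and they were picked by gene name from a table of 54532 mouse genes, of which 15915 were tested. They comprise 12 SR and SR-like proteins, 7 RNA-binding regulators and partners of the U1 particle, 5 kinases, 6 speckle scaffold and SR-related proteins, 2 RNA helicases and 3 factors that recognise splice sites. The list was proposed with the radiation results of these data known, so the values after radiation are a description of these genes, and no test of them as a group is given. Adjusted p-values beside a gene's radiation effect come from the fit to all genes and are no independent evidence for genes chosen this way. The RNA was taken from the submandibular gland, one of the salivary glands, of adult TertCreERT2/+Rosa26LSL-tdTomato/+ mice. In these animals 1 Tert allele carries an inducible Cre recombinase, and Cre switches on the red reporter tdTomato, so tdTomato marks cells in which the Tert locus drove Cre and their descendants. Every group shares this genotype, and every library was sorted as DAPI-negative, which keeps cells with an intact membrane, and EpCAM-positive, EpCAM being a surface protein of epithelium. The 4 groups were tdTomato-positive cells after 15 Gy of radiation (Tert+ RT, n = 4), tdTomato-positive cells without it (Tert+ no RT, n = 3), tdTomato-negative cells after 15 Gy (Tert- RT, n = 4) and tdTomato-negative cells without it (Tert- no RT, n = 3). The labels give neither the time from radiation to sorting nor whether each replicate is an animal of its own. The p-values therefore measure the spread between these libraries alone, which may be technical. Populations follow the sample titles. The cell type field of the labels states the opposite population in 14 of 14 libraries, which leaves the RT comparisons unaffected in the mean of both populations but would turn the sign of each Tert+ against Tert- difference.

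Splicing removes introns from a transcript, and the spliceosome that does so is assembled anew on each intron. SR proteins, named for a tail rich in arginine and serine, bind exons and recruit the U1 particle to the 5′ splice site and the U2AF pair to the 3′ splice site. Kinases of the CLK family phosphorylate that tail and release SR proteins from nuclear speckles, the bodies in which splicing factors collect around the scaffold proteins SON and SRRM2. In mammals many SR genes limit their own output by splicing in an exon that sends the transcript to nonsense-mediated decay, and Clk1 and Clk4 are known for transcripts that keep introns and stay in the nucleus.

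Total counts were 5520412 to 11642156 in the 8 RT libraries and 9220126 to 15943597 in the 6 no RT libraries, and the RT libraries all carry the higher library numbers, so library order and RT cannot be told apart. The sort label was checked against marker genes. The 10 acinar genes, of secretory cells, summed to 3236 to 25012 CPM in RT libraries and 2237 to 31527 CPM in no RT libraries. The 10 genes of the granular convoluted tubule summed to 800.4 to 11043 CPM in RT libraries and 1719 to 14653 CPM in no RT libraries. Those of the duct and epithelial list, 10 genes, summed to 104 to 485 CPM in RT libraries and 147 to 605 CPM in no RT libraries. The 10 B cell genes summed to 16535 to 21077 CPM in RT libraries and 15138 to 25675 CPM in no RT libraries. The libraries hold abundant B cell transcripts beside the epithelial ones, and in such bulk samples fewer cells of a type and less RNA per cell cannot be told apart. Levels are given as CPM, counts scaled to a common library total after TMM normalisation. The libraries Tert+ RT replicate 4, Tert+ no RT replicate 1 and Tert- no RT replicate 1 stood apart from their groups on the leading principal components, which carried 28.3% and 11.1% of the variance. Tert- no RT replicate 1 held the highest value of its group for 28 of the 35 genes, with a median log2 ratio to the other libraries of its group of 0.45, against 0.02 over all genes. Tert+ RT replicate 4 held the lowest value of its group for 19 of the 35. Tert+ no RT replicate 1 held the highest value of its group for 12 and the lowest for 13.

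All 35 genes passed the filter on low counts. Averaged over both populations, 20 of the 35 were higher after RT, 1 was lower and 14 did not pass an adjusted p of 0.05 in edgeR's quasi-likelihood test, where p-values were adjusted over all 15915 genes. The background for that comparison was 13.4% of genes called in either direction, 6.36% higher and 7.0% lower. This test took same-numbered Tert+ and Tert- libraries as independent, though those without RT deviated together, so its p-values may be too small. With upper-quartile scaling the calls over all genes were 1166 higher and 810 lower in place of 1012 higher and 1114 lower, and those among the 35 were 21 higher and 0 lower. Because the list was drawn up with these results known, nothing is read from the gap to the background. The median log2 fold change of the 35 was 0.50, beside -0.01 over all genes tested, and 32 of the 35 had a fold change above 0, beside 49.4% of all genes. In Tert+ cells alone 5 genes were higher and 0 lower, with 1.98% of all genes called in either direction (1.11% higher, 0.873% lower). In Tert- cells alone 6 were higher and 0 lower, with 1.62% of all genes called in either direction (0.817% higher, 0.804% lower). Fold changes lay above 0 for 30 of the 35 in Tert+ and 33 in Tert-, beside 49.7% and 49.2% of all genes. The counts in the separate populations rested on individual libraries. Leaving out 1 library at a time gave 0 to 10 genes in Tert+, with 0 without Tert+ no RT replicate 2 or 3 or Tert+ RT replicate 2. In Tert- it gave 0 to 15, with 0 without Tert+ no RT replicate 2, Tert- no RT replicate 2 or 3 or Tert- RT replicate 2 or 3, and the highest count in either population came without Tert- no RT replicate 1. The same omissions gave 16 to 22 genes in the mean over both populations, of which 16 to 20 were among its 21 called genes. With all 3 libraries that stood apart left out, 12 genes passed in Tert+ and 17 in Tert-, all of them higher after RT. In the mean over both populations Srsf6 lost its call with this omission. This omission took out the no RT library highest of its group for 28 of the 35 genes and the RT library lowest for 19. It thereby favours higher values after RT, and nothing is read from the larger counts. Calls over all genes rose too in Tert+ and in Tert-, as given in the closing section.

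**Figure D1:**
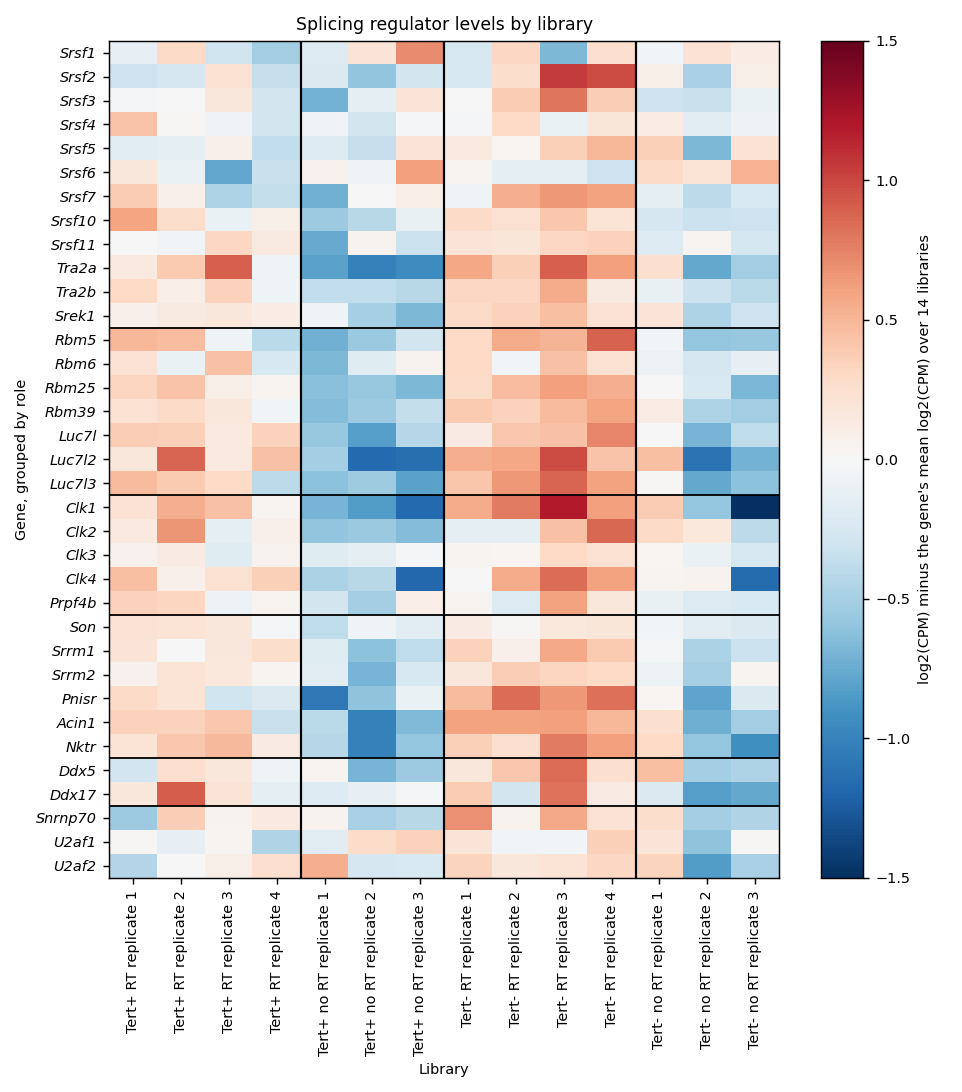
Level of each of the 35 genes in each of 14 libraries, as log2(CPM) minus the gene's mean over all libraries (colour; red higher, blue lower), with genes in rows by role and libraries in columns by group. Most genes are redder in the RT columns than in the no RT columns of the same population; Tert- no RT replicate 1 is redder than the other 2 libraries of its group, and Srsf6 runs the other way.

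The 35 genes together took 0.645, 0.674, 0.624 and 0.542% of the counts in Tert+ RT, against 0.380, 0.420 and 0.470% in Tert+ no RT. In Tert- RT they took 0.664, 0.732, 0.859 and 0.808%, against 0.601, 0.408 and 0.440% in Tert- no RT. The RT libraries lay above the no RT libraries within each population, and over all 14 libraries only Tert- no RT replicate 1 reached into the RT range. Gene by gene, 17 genes had all 4 Tert+ RT libraries above all 3 Tert+ no RT libraries and 0 had them below, with 15.5% of all genes free of overlap (7.28% above, 8.25% below). In Tert- cells 19 were above and 1, Srsf6, was below, with 18.9% of all genes free of overlap (9.70% above, 9.22% below). Over the 8 RT and 6 no RT libraries together, 6 genes (Srsf10, Tra2b, Rbm25, Luc7l, Son and Srrm1) did not overlap, all of them higher after RT. The background was 3.15% of all genes (1.82% higher, 1.33% lower). Without Tert- no RT replicate 1 the number was 14, all of them higher, with 6.61% of all genes (3.67% higher). That library was the highest of its group for 28 of the 35 genes, so nothing is read from the larger number.

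Promoter sequences, 250 bases before to 50 bases after the transcription start, were matched in RefSeq (GRCm38.p6) for 31 of the 35 genes. Those of Tra2a, Tra2b, Rbm39, Clk4 and Srsf6 are printed because these genes span the response, from the SR-like proteins and the kinase that were higher after RT to the SR protein that was lower; they were chosen after their values were seen. Capitals mark matches on either strand to motifs named for the factors or elements they are known from. The ETS family was searched as CCGGAAGT, the cAMP response element (CRE) as TGACGTCA, and YY1 as AAGATGGC. The GC box was searched as GGGCGG, the CCAAT box by the letters of its name, and NRF1 by its palindromic consensus motif. Within the 5 printed windows no match of a motif overlaps a match of another. The windows lie at chr6:49264003-49264302 (minus strand), chr16:22265956-22266255 (minus strand), chr2:156180189-156180488 (minus strand), chr11:51262864-51263163 (plus strand) and chr2:162931258-162931557 (plus strand), each written 5′ to 3′ along the gene.
Tra2a: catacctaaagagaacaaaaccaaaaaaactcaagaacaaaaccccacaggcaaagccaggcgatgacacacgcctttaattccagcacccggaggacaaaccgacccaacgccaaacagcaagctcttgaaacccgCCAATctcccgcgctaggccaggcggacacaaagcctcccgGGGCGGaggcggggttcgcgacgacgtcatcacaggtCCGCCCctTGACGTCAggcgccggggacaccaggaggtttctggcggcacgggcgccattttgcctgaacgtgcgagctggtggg
Tra2b: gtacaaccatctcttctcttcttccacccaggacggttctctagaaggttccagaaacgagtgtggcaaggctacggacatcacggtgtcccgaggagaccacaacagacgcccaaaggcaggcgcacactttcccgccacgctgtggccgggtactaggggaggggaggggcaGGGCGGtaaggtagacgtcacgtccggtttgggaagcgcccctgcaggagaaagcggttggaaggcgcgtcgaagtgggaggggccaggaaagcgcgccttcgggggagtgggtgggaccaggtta
Rbm39: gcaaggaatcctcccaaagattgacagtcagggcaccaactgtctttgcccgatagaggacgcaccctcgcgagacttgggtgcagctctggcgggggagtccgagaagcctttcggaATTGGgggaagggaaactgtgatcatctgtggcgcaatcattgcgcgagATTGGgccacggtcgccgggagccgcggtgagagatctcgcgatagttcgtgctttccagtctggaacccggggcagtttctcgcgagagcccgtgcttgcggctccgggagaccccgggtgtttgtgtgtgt
Clk4: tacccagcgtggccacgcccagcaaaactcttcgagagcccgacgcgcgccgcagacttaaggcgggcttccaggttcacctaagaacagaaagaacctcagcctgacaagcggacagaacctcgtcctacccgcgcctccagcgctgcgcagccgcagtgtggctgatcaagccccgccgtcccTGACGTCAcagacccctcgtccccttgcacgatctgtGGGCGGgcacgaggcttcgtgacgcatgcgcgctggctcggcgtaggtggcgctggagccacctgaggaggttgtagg
Srsf6: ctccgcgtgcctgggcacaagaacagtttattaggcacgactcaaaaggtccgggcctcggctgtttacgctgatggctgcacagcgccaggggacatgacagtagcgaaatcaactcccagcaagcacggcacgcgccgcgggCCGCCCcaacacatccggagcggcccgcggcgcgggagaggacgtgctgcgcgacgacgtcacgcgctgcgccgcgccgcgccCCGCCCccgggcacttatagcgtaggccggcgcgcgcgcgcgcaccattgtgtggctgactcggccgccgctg
The CRE letters occurred in the promoters of Clk4 and Tra2a, which is 6.45% of the 31 matched genes, and in 3.16% of 10619 promoters of tested genes. The GC box occurred in 21 of the 31 (67.7%, beside 62.1% of all promoters) and CCAAT in 15 (48.4%, beside 38.4%). The ETS letters were found in 5 (16.1%, beside 8.19%), those of NRF1 in 2 (6.45%, beside 2.03%) and those of YY1 in 0, beside 4.59%. Median GC content was 64.3% in the 31 promoters and 60.3% in all 10619. A match describes letters in this window and not a bound site. For the 31 genes the RefSeq start nearest the gene's start was used, and for the 10619 the first listed, so the shares rest on unlike choices. Some windows lie wholly inside the gene: those of Srrm2, Rbm25, Luc7l2, Clk4, Srsf10 and Son on the plus strand. The same holds for Clk3 and Rbm6 on the minus strand. The windows of Srrm2, Rbm25, Luc7l2 and Clk4 begin at 23802937, 83635460, 38555473 and 51262864. The genes themselves start at 23790532, 83631236, 38551334 and 51261730. The motif shares and the GC content of the 31 promoters include all of these windows.

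SR proteins and their relatives, which mark exons for the spliceosome, split by member: 5 of 12 rose in RT (Tra2a, Tra2b, Srsf10, Srsf11 and Srek1), Srsf6 fell and 6 did not pass. Every fold change given for a gene is a log2 fold change of RT over no RT from edgeR, with its standard error after ± where one is given. Standard errors of log2 changes and differences were derived as their size divided by the square root of the test's F statistic. The largest among the SR proteins was that of Tra2a (ENSMUSG00000029817, chr6:49243924-49264033, minus strand), which with its paralog Tra2b binds purine-rich exonic enhancers. Tra2a was at 78.5, 92.6, 132 and 67.5 CPM in Tert+ RT, against 40.4, 35.03 and 36.7 CPM in Tert+ no RT. Levels of Tra2a in Tert- RT were 106, 90.9, 132 and 108 CPM, against 83.9, 41.6 and 49.4 CPM in Tert- no RT. The Tert+ RT libraries all lay above the Tert+ no RT libraries, as did the Tert- RT libraries above those of Tert- no RT, though Tert- no RT replicate 1 reached into the range of Tert+ RT. Tra2a had a log2 fold change of 1.11 ± 0.18 (SE) over both populations (adjusted p = 0.00192), of 1.31 ± 0.26 in Tert+ (adjusted p = 0.0238) and of 0.90 ± 0.26 in Tert- (adjusted p = 0.0784). Tra2b (ENSMUSG00000022858, chr16:22244549-22266005, minus strand) was at 411, 357, 425 and 319 CPM in Tert+ RT, against 258, 259 and 251 CPM in Tert+ no RT. For Tra2b in Tert- RT the values were 414, 415, 489.6 and 366 CPM, against 310.2, 267 and 252 CPM in Tert- no RT. Over both populations all 8 irradiated libraries lay above all 6 unirradiated ones for Tra2b. The change of Tra2b was 0.58 ± 0.10 on the log2 scale over both populations (adjusted p = 0.00192), and it passed in Tert+ (0.56, adjusted p = 0.0454) and in Tert- (0.61, adjusted p = 0.0378).

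Srsf10, an SR protein that represses splicing when dephosphorylated, was at 220.4, 175, 137 and 156 CPM in Tert+ RT, against 101, 109.9 and 135 CPM in Tert+ no RT. Srsf10 values in Tert- RT were 178, 172, 194 and 169 CPM, against 123, 117 and 119 CPM in Tert- no RT. Its 8 RT libraries lay above its 6 no RT libraries, and the log2 fold change was 0.58 ± 0.11 (adjusted p = 0.00486). Srsf11 was at 265, 256, 328 and 289 CPM in Tert+ RT, against 156, 273 and 210.0 CPM in Tert+ no RT. Levels of Srsf11 in Tert- RT were 302, 298, 327 and 335 CPM, against 230.2, 271 and 220.4 CPM in Tert- no RT. Within Tert- the groups of Srsf11 did not overlap, within Tert+ replicate 2 without RT lay among the RT libraries, and the fold change of 0.40 (adjusted p = 0.0325) lost its call in 8 of 23 other settings. Srek1, which regulates splice choice together with SR proteins, was at 83.4, 86.97, 88.97 and 85.4 CPM in Tert+ RT, against 76.2, 55.8 and 49.8 CPM in Tert+ no RT. Srek1 values in Tert- RT were 96.3, 101, 109 and 92.2 CPM, against 90.7, 57.5 and 63.6 CPM in Tert- no RT. The groups of Srek1 did not overlap within either population; its fold change of 0.50 (adjusted p = 0.0187) lost the call in 4 of 23 settings, each of them without 1 no RT library.

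Srsf6 (ENSMUSG00000016921, chr2:162931528-162937121, plus strand), an SR protein of the group with 2 RNA-recognition motifs, was the exception. Its values were 115, 95.5, 59.5 and 80.9 CPM in Tert+ RT, against 107, 97.6 and 157 CPM in Tert+ no RT. Levels of Srsf6 in Tert- RT were 105, 92.4, 92.4 and 82.5 CPM, against 125, 118 and 147 CPM in Tert- no RT. All Tert- RT libraries lay below all Tert- no RT libraries, while in Tert+ replicate 1 after RT lay within the no RT range. The log2 fold change of Srsf6 was -0.47 ± 0.15 over both populations with an adjusted p of 0.0482, close to the threshold, and the call was lost in 18 of 23 other settings, with adjusted p-values up to 0.151 (without Tert+ no RT replicate 3). In the separate populations Srsf6 did not pass (adjusted p = 0.267 in Tert+ and 0.23 in Tert-).

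The other 6 SR proteins did not pass, and 3 of them are among the most abundant of the list per length. Srsf7, an SR protein with a zinc knuckle, was at 206, 166, 115 and 124 CPM in Tert+ RT, against 95.8, 159 and 169.7 CPM in Tert+ no RT. For Srsf7 in Tert- RT the values were 151, 230.3, 249 and 241 CPM, against 143, 120.1 and 134 CPM in Tert- no RT. In Tert- its RT and no RT libraries did not overlap, in Tert+ they did, and the fold change over both populations was 0.41 (adjusted p = 0.117). Srsf5 was at 194, 197, 228 and 167 CPM in Tert+ RT, against 189, 170.0 and 248 CPM in Tert+ no RT. Srsf5 values in Tert- RT were 239.9, 221, 276 and 304 CPM, against 276, 135 and 252 CPM in Tert- no RT. Its groups overlapped in both populations (fold change 0.10, adjusted p = 0.725). Srsf2, the protein known as SC35, was at 118, 123, 172 and 115 CPM in Tert+ RT, against 126, 97.1 and 120.2 CPM in Tert+ no RT. Levels of Srsf2 in Tert- RT were 123, 175, 303 and 288 CPM, against 155, 104 and 156 CPM in Tert- no RT. Tert- RT replicates 3 and 4 stood far above the rest for Srsf2, and its groups overlapped (fold change 0.44, adjusted p = 0.134); the opposite-strand genes Mettl23 and Mfsd11 overlap its locus, and their own counts amount to 31.3% and 16.6% of those of Srsf2. Given as mean ± SD over the 4 RT or 3 no RT libraries of a population, Srsf1, the founding SR protein, averaged 88.6 ± 21.6 CPM in Tert+ RT, 118 ± 37.6 CPM in Tert+ no RT, 94.7 ± 28.2 CPM in Tert- RT and 104 ± 9.37 CPM in Tert- no RT, with a fold change of -0.28 (adjusted p = 0.334). Srsf3, which also serves mRNA export, averaged 255 ± 31.6 CPM in Tert+ RT, 230.4 ± 68.8 CPM in Tert+ no RT, 346 ± 79.5 CPM in Tert- RT and 219 ± 19.5 CPM in Tert- no RT, and its fold change was 0.40 (adjusted p = 0.0779). Srsf4 averaged 31.3 ± 6.60 CPM in Tert+ RT, 27.98 ± 2.68 CPM in Tert+ no RT, 32.3 ± 4.04 CPM in Tert- RT and 29.5 ± 2.93 CPM in Tert- no RT and had a fold change of 0.15 (adjusted p = 0.563).

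Of the 7 RNA-binding regulators and U1 partners, 6 rose and Rbm6 did not pass, and each of the 7 had a fold change above 0 in both populations. Rbm25 (ENSMUSG00000010608, chr12:83631236-83683123, plus strand), known in human cells for control of the 5′ splice site of Bcl-x, had the smallest adjusted p of the 35. It was at 265, 284, 225 and 219 CPM in Tert+ RT, against 137, 143 and 132 CPM in Tert+ no RT. Rbm25 values in Tert- RT were 256, 292, 326 and 308 CPM, against 213, 181 and 132 CPM in Tert- no RT. The lowest RT library for Rbm25, at 219 CPM, exceeded the highest no RT library, at 213 CPM. Its log2 fold change was 0.80 ± 0.11 over both populations (adjusted p = 0.00092), 0.85 in Tert+ (adjusted p = 0.0194) and 0.75 in Tert- (adjusted p = 0.0327). Rbm39 (ENSMUSG00000027620, chr2:156147239-156180238, minus strand), a partner of U2AF that sulfonamide compounds such as indisulam lead to degradation, was the most abundant of the list per length. Rbm39 was at 747, 778, 717 and 621 CPM in Tert+ RT, against 406, 437 and 498 CPM in Tert+ no RT. Levels of Rbm39 in Tert- RT were 836, 809, 891 and 966 CPM, against 693, 464 and 445 CPM in Tert- no RT. Within each population the groups of Rbm39 did not overlap; across populations Tert- no RT replicate 1, at 693 CPM, lay above Tert+ RT replicate 4. The fold change was 0.70 ± 0.11 over both (adjusted p = 0.00161), 0.68 in Tert+ (adjusted p = 0.0386) and 0.71 in Tert- (adjusted p = 0.0354).

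**Figure D2:**
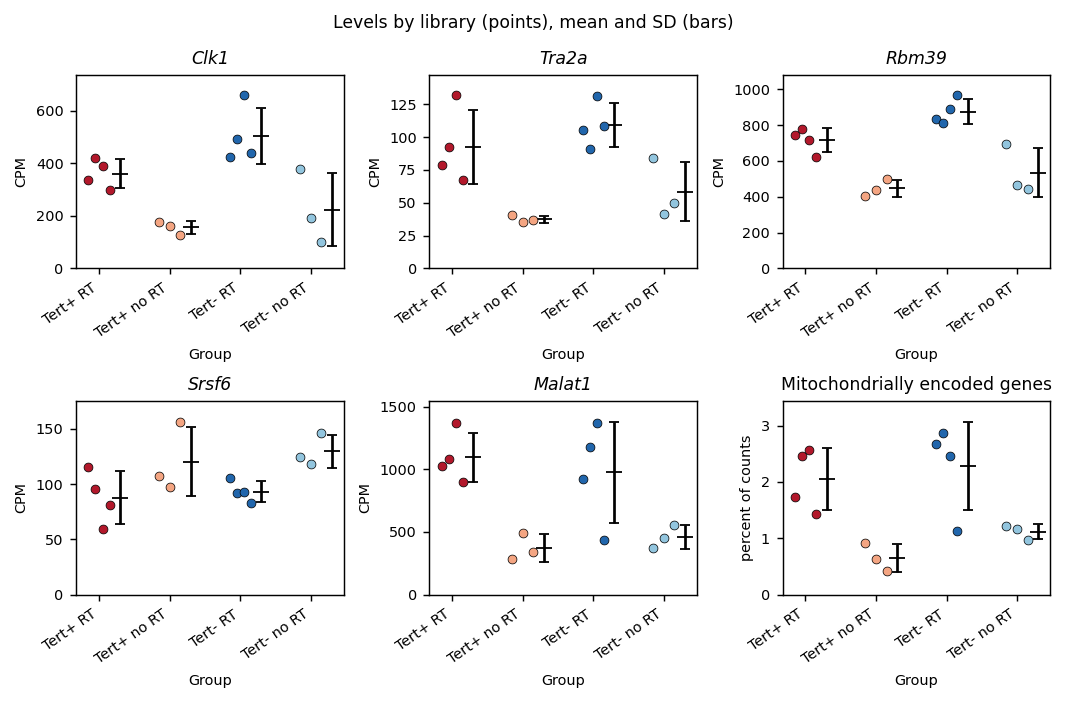
CPM of Clk1, Tra2a, Rbm39, Srsf6 and Malat1 and the share of counts from mitochondrially encoded genes (percent), by group, with a point for each library and bars for the mean and SD. Clk1, Tra2a and Rbm39 sit higher in RT than in no RT within each population and Srsf6 has the lower means; in Tert- RT replicate 4, Malat1 (432 CPM) and the mitochondrial share (1.13%) lie at the level of the no RT libraries.

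Rbm5, a regulator of alternative splicing of death receptor transcripts, was at 409, 397, 276 and 218 CPM in Tert+ RT, against 175, 196 and 239 CPM in Tert+ no RT. For Rbm5 in Tert- RT the values were 355, 425, 410.4 and 535 CPM, against 279.5, 193 and 195 CPM in Tert- no RT. In Tert- the groups did not overlap, and in Tert+ replicate 4 after RT lay below the highest no RT library. The fold change of Rbm5 was 0.81 ± 0.16 over both populations (adjusted p = 0.00462) and passed in Tert- (0.95, adjusted p = 0.0449), with 0.67 in Tert+ (adjusted p = 0.129). The difference between the populations for Rbm5 did not pass (adjusted p = 1, edgeR). Its chromosomal neighbour Rbm6 averaged 112 ± 24 CPM in Tert+ RT, 88.3 ± 21.3 CPM in Tert+ no RT, 123 ± 16.6 CPM in Tert- RT and 93.8 ± 5.52 CPM in Tert- no RT, with a fold change of 0.37 (adjusted p = 0.0889).

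The LUC7-like proteins Luc7l, Luc7l2 and Luc7l3, which sit on the U1 particle and influence 5′ splice site choice, all rose. Luc7l (ENSMUSG00000024188, chr17:26252910-26285504, plus strand) was at 109, 109, 94.2 and 108 CPM in Tert+ RT, against 57.3, 47.7 and 62.8 CPM in Tert+ no RT. Luc7l values in Tert- RT were 91.9, 112, 115 and 140.5 CPM, against 84.1, 52.4 and 64.98 CPM in Tert- no RT. No overlap was seen over all 14 libraries, and the fold change was 0.84 ± 0.13 (adjusted p = 0.00144), with 0.91 in Tert+ (adjusted p = 0.0269) and 0.77 in Tert- (adjusted p = 0.0482). Luc7l3 was at 82.2, 78.1, 73.3 and 45.1 CPM in Tert+ RT, against 38.8, 41.1 and 34.1 CPM in Tert+ no RT. Levels of Luc7l3 in Tert- RT were 78.9, 92.9, 109 and 90.2 CPM, against 59.9, 34.96 and 38.7 CPM in Tert- no RT. Its groups were apart within each population, and it changed by 0.96 over both (adjusted p = 0.00222), with a call in Tert- (1.06, adjusted p = 0.0366) and an adjusted p of 0.0661 in Tert+. Luc7l2, the least abundant of the 35 per length, was at 22.4, 36.5, 22.1 and 27.1 CPM in Tert+ RT, against 14.05, 8.85 and 9.11 CPM in Tert+ no RT. Luc7l2 values in Tert- RT were 29.2, 29.8, 39.1 and 26.9 CPM, against 27.2, 9.26 and 12.2 CPM in Tert- no RT. In Tert+ its groups were apart and in Tert- replicate 1 without RT lay among the RT libraries, with a fold change of 1.14 ± 0.25 over both (adjusted p = 0.00918).

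Among the kinases that phosphorylate SR proteins, Clk1 and Clk4 rose and Clk2, Clk3 and Prpf4b did not pass. Clk1 (ENSMUSG00000026034, chr1:58410189-58424066, minus strand) had the largest log2 fold change of the 35 over both populations. Its levels were 335, 421, 389 and 297 CPM in Tert+ RT, against 177, 162 and 128 CPM in Tert+ no RT. Levels of Clk1 in Tert- RT were 423, 493, 658 and 439.7 CPM, against 376, 193 and 102 CPM in Tert- no RT. Within each population every RT library was above every no RT library, and Tert- no RT replicate 1 alone reached the levels of Tert+ RT. The fold change of Clk1 was 1.19 ± 0.22 over both populations (adjusted p = 0.00399), 1.21 in Tert+ (adjusted p = 0.0626) and 1.17 in Tert- (adjusted p = 0.0693), so that it passed in the mean and in neither population alone. Clk4, its close relative, was at 131, 100.4, 112 and 122 CPM in Tert+ RT, against 68.7, 71.4 and 42.3 CPM in Tert+ no RT. For Clk4 in Tert- RT the values were 95.03, 140.4, 171 and 145 CPM, against 98.4, 98.7 and 42.8 CPM in Tert- no RT. Groups were apart in Tert+, whereas in Tert- replicate 1 after RT lay below replicates 1 and 2 without it; the fold change was 0.86 ± 0.20 (adjusted p = 0.0108). Clk2 averaged 23.4 ± 5.91 CPM in Tert+ RT, 13.3 ± 0.446 CPM in Tert+ no RT, 25.1 ± 8.78 CPM in Tert- RT and 20.7 ± 4.81 CPM in Tert- no RT, with a fold change of 0.55 (adjusted p = 0.105). Clk3 averaged 126 ± 11.1 CPM in Tert+ RT, 115 ± 7.32 CPM in Tert+ no RT, 138 ± 12.8 CPM in Tert- RT and 116 ± 10.8 CPM in Tert- no RT, with a fold change of 0.19 (adjusted p = 0.185), and overlaps Edc3 on the opposite strand, whose own counts amount to 57.6% of its own. Prpf4b, a kinase of the assembling spliceosome, averaged 81.2 ± 11.9 CPM in Tert+ RT, 62.6 ± 13.5 CPM in Tert+ no RT, 82.03 ± 19.97 CPM in Tert- RT and 63.8 ± 2.77 CPM in Tert- no RT, with a fold change of 0.37 (adjusted p = 0.0987).

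All 6 speckle scaffold and SR-related proteins rose in the mean of both populations, and none passed in either population alone. Son (ENSMUSG00000022961, chr16:91647506-91679221, plus strand), a scaffold of the speckle, was at 414, 413, 403 and 351 CPM in Tert+ RT, against 275, 341 and 317 CPM in Tert+ no RT. Son values in Tert- RT were 389, 363, 400.1 and 404 CPM, against 348, 319 and 307 CPM in Tert- no RT. Its RT libraries ran from 351 to 414 CPM and its no RT libraries from 275 to 348 CPM, without overlap. The fold change of Son was the smallest among the called genes, 0.30 ± 0.08 (adjusted p = 0.0233), and was lost in 4 of 23 settings. Srrm2, the other scaffold, was at 301, 329.8, 320.1 and 295 CPM in Tert+ RT, against 255, 176 and 242 CPM in Tert+ no RT. Levels of Srrm2 in Tert- RT were 324, 372, 359.8 and 353 CPM, against 273, 203 and 295 CPM in Tert- no RT. Groups of Srrm2 were apart within each population (fold change 0.46 ± 0.11, adjusted p = 0.011). Srrm1, a coactivator that bridges SR proteins and the spliceosome, was at 199, 174, 196 and 209 CPM in Tert+ RT, against 154, 114 and 133 CPM in Tert+ no RT. Srrm1 values in Tert- RT were 221, 184, 258 and 228 CPM, against 171, 125 and 139 CPM in Tert- no RT. The 8 RT libraries of Srrm1 lay above its 6 no RT libraries (fold change 0.58 ± 0.11, adjusted p = 0.00401).

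Acin1, known from apoptotic chromatin condensation and from a complex at the exon junction, was at 99.3, 99.7, 104 and 62.02 CPM in Tert+ RT, against 59.4, 38.9 and 49.7 CPM in Tert+ no RT. Levels of Acin1 in Tert- RT were 119, 119, 120.5 and 111 CPM, against 93, 47.1 and 54.8 CPM in Tert- no RT. Its groups were apart within each population, with Tert+ RT replicate 4 well below the other Tert+ RT libraries, and the fold change was 0.87 ± 0.17 (adjusted p = 0.00462). Nktr, a cyclophilin with an SR-rich tail, was at 96.8, 111, 117 and 90.8 CPM in Tert+ RT, against 62.2, 41.4 and 56.2 CPM in Tert+ no RT. For Nktr in Tert- RT the values were 107, 99.2, 144 and 129 CPM, against 103, 56.03 and 44.2 CPM in Tert- no RT. In Tert+ its groups were apart; in Tert- replicate 1 without RT lay above replicate 2 after it (fold change 0.89 ± 0.18, adjusted p = 0.00555). Pnisr, an SR-related speckle protein, was at 73.6, 69.7, 48.9 and 51.9 CPM in Tert+ RT, against 28.7, 39.6 and 56.4 CPM in Tert+ no RT. Pnisr values in Tert- RT were 83.6, 108, 94.6 and 107 CPM, against 61.3, 34.8 and 51.8 CPM in Tert- no RT. Here the groups were apart in Tert- and overlapped in Tert+ (fold change 0.77 ± 0.18, adjusted p = 0.0106).

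The DEAD-box helicases Ddx5 and Ddx17, paralogs that remodel RNA structure at splice sites, had fold changes of 0.47 ± 0.18 and 0.67 ± 0.21, and of the pair Ddx17 passed. Ddx5 was at 386, 559, 529 and 451 CPM in Tert+ RT, against 483, 291 and 321 CPM in Tert+ no RT. Levels of Ddx5 in Tert- RT were 527, 623, 842 and 554 CPM, against 644, 329.8 and 341 CPM in Tert- no RT. Its groups overlapped in both populations (adjusted p = 0.0919), with Tert- no RT replicate 1 above 3 of the 4 Tert- RT libraries. Ddx17 was at 30.7, 51.1, 31.1 and 24.6 CPM in Tert+ RT, against 23.8, 24.97 and 26.6 CPM in Tert+ no RT. Ddx17 values in Tert- RT were 35.5, 22.6, 48.1 and 29.7 CPM, against 23.6, 15.4 and 16.1 CPM in Tert- no RT. RT and no RT libraries of Ddx17 overlapped in both populations, its adjusted p was 0.0491, and 14 of 23 other settings lost the call, with adjusted p-values up to 0.115. None of the 3 splice site recognition factors passed. U2af1, the U2AF subunit that reads the AG at the 3′ splice site, was at 53.3, 48.7, 54.2 and 38.5 CPM in Tert+ RT, against 46.9, 63.9 and 66.95 CPM in Tert+ no RT. Levels of U2af1 in Tert- RT were 60.4, 51.1, 51.2 and 67.9 CPM, against 60.4, 34.8 and 53.4 CPM in Tert- no RT. It showed no separation in either population (fold change -0.03, adjusted p = 0.922). U2af2, which binds the polypyrimidine tract, averaged 49.8 ± 9.46 CPM in Tert+ RT, 52.5 ± 17.6 CPM in Tert+ no RT, 59.7 ± 3.39 CPM in Tert- RT and 42.2 ± 18.5 CPM in Tert- no RT, and Snrnp70, the 70K protein of the U1 particle, averaged 77.6 ± 19.1 CPM in Tert+ RT, 62.96 ± 13.5 CPM in Tert+ no RT, 99.6 ± 20.1 CPM in Tert- RT and 66.2 ± 21.01 CPM in Tert- no RT. Their fold changes were 0.21 (adjusted p = 0.505) and 0.44 (adjusted p = 0.108).

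**Figure D3:**
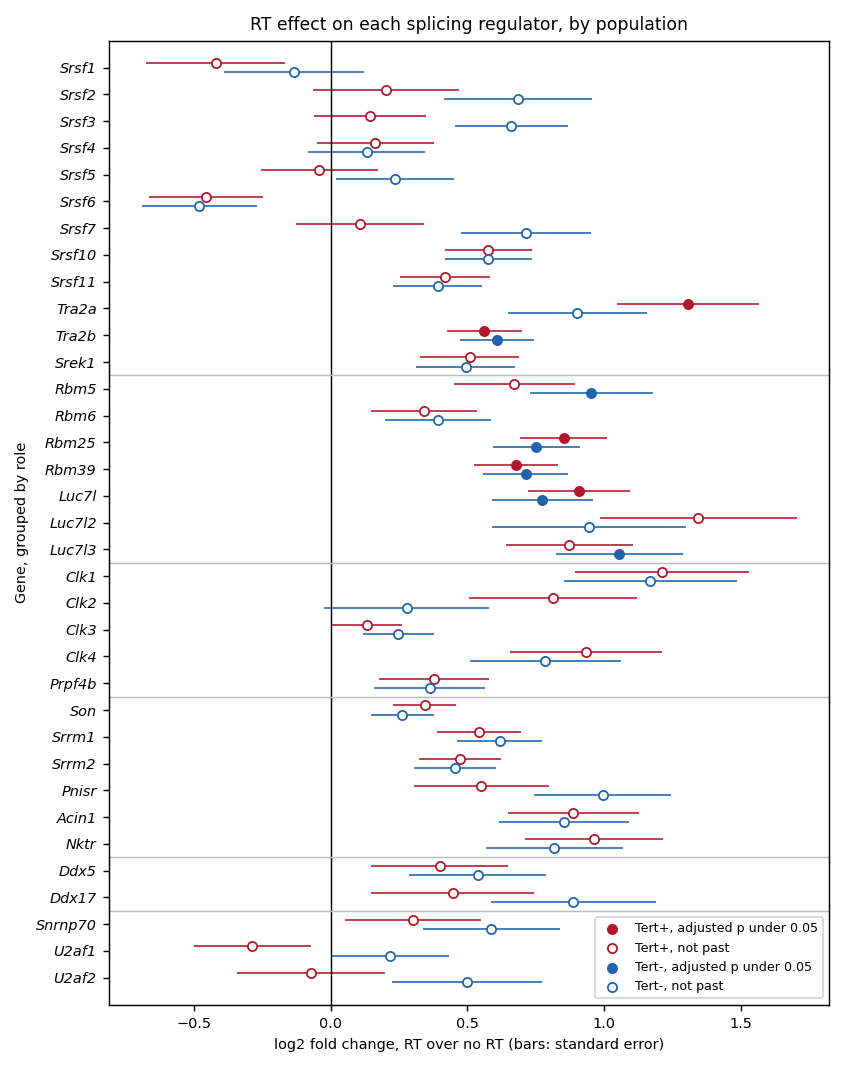
Log2 fold change of RT over no RT for each of the 35 genes (rows, by role) in Tert+ (red) and Tert- (blue), with bars for the standard error and filled points for an adjusted p under 0.05. Points lie right of 0 for 30 genes in Tert+ and 33 in Tert-, and the filled points are 5 in Tert+ and 6 in Tert-.

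The RT effects in Tert+ and Tert- were set against each other in an interaction term. For 0 of the 35 genes did they differ past the threshold, the background being 0 of 15915 genes in edgeR. At an unadjusted p under 0.05 stood 3.63% of all genes (578) and 0 of the 35. DESeq2 called 12 genes and none of the 35. The smallest unadjusted p among the 35 was that of Srsf7 (0.0866), whose RT effect differed by -0.61 ± 0.33 on the log2 scale (Tert+ minus Tert-). Standard errors of these differences ran from 0.16 to 0.49, which limits what could be seen.

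Between the populations, Tert+ and Tert- cells were set side by side within each radiation state. After RT, 0 of the 35 genes passed, with 0.0126% of all genes called. The point estimates lay below 0 for 33 of the 35, with a median log2 difference (Tert+ minus Tert-) of -0.21, beside -0.00 over all genes, where 49.4% lay above 0. Of the 35, 4 genes had an unadjusted p under 0.05, beside 7.39% of all genes. These were Srsf2 (-0.76 ± 0.25, adjusted p = 0.479), Pnisr (-0.69 ± 0.23, adjusted p = 0.482), Srsf7 (-0.51 ± 0.22, adjusted p = 0.631) and Srsf3 (-0.44 ± 0.19, adjusted p = 0.631). Pnisr, at 73.6, 69.7, 48.9 and 51.9 CPM in Tert+ RT, against 83.6, 108, 94.6 and 107 CPM in Tert- RT, was among 5 genes free of overlap, all lower in Tert+ RT (the others were Srek1, Rbm39, Clk1 and Acin1), with 4.88% of all genes free of overlap (2.43% higher, 2.46% lower). Without RT, 0 of the 35 passed, with 0.0377% of all genes called. There 29 of the 35 point estimates lay below 0 (median -0.13, beside 0.01 over all genes, of which 50.8% lay above 0). Tra2a alone had an unadjusted p under 0.05, beside 4.50% of all genes (-0.64 ± 0.27, adjusted p = 1). Ddx17 was free of overlap and higher in Tert+ no RT, and Tra2a and Clk2 were free of overlap and lower, with 8.87% of all genes free of overlap (4.04% higher, 4.83% lower). Directions in this paragraph rest on the titles.

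Levels per length put the genes in another order than CPM does. As mean CPM per kilobase of gene length over the 14 libraries, Rbm39 led at 95.7, followed by Ddx5 at 85.1, Srsf7 at 72.2, Srsf5 at 55.5, U2af1 at 55.1 and Srsf2 at 52.5. Srsf5, U2af1 and Srsf2 lay within 3 CPM per kilobase of each other, and their order is not distinct given the spread of their libraries. The table's length was shorter than the union of annotated exons for U2af1 (974 against 2598 bases) and for Srsf7 (2279 against 3550 bases). On the union length Srsf7 stood at 46.3 CPM per kilobase and U2af1 at 20.7, so that Clk1, at 40.3, took the place of U2af1 among the 6 highest. At the low end stood Luc7l2 at 1.86, Ddx17 at 3.77, Clk2 at 3.99 and Nktr at 4.22 CPM per kilobase. Of the 6 genes highest per kilobase of the table's length, Rbm39 passed in the RT comparison, and of the 4 lowest Clk2 did not.

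Other RNA measures moved with RT in the same libraries. Malat1, a long RNA of speckles, was at 1026, 1087, 1368 and 899 CPM in Tert+ RT, against 286, 493 and 336 CPM in Tert+ no RT. In Tert- RT it was at 924, 1175, 1371 and 432 CPM, against 371, 454 and 559 CPM in Tert- no RT. Mitochondrially encoded genes took 1.73, 2.46, 2.57 and 1.44% of counts in Tert+ RT, against 0.914, 0.625 and 0.418% in Tert+ no RT. Their share was 2.67, 2.86, 2.47 and 1.13% in Tert- RT, against 1.22, 1.16 and 0.971% in Tert- no RT. Tert- RT replicate 4 was the exception in both, at the level of the no RT libraries, while its 35 splicing genes summed to 7641 CPM, above all 6 no RT libraries (4229 to 5951 CPM). Of the 9 nuclear-retained long RNAs 8 were tested, 4 rose (Malat1, Neat1, Xist and Kcnq1ot1, with log2 fold changes of 1.32, 1.98, 1.30 and 0.91) and 4 did not pass, with a median of 1.05. Of the 13 mitochondrially encoded genes 10 rose, 0 fell and the median was 1.33. Two-sided exact permutation tests within each population passed for neither Malat1 nor the mitochondrial share. Adjusted p-values were 0.152 in Tert+ and 0.261 in Tert- for Malat1, and 0.183 and 0.261 for the share. With 4 and 3 libraries the smallest p such a test can give is 0.0286, before adjustment over 32 tests. The part of these measures in the levels of the splicing genes was not tested.

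Markers of cell types were set against the same 13.4% of all genes called. Of 10 B cell markers 0 rose and 1 fell (median log2 fold change -0.11), and of 10 T cell markers 0 rose and 2 fell (-1.21). Among 10 macrophage markers 0 rose and 2 fell (-0.36), among 10 acinar markers 0 rose and 2 fell (-0.76), and of 7 plasma cell markers tested 1 rose and 3 fell (-0.32). No marker of the duct list, the granular tubule list or the stroma list passed. List medians differed in sign between Tert+ and Tert- for macrophage markers (0.41 and -1.18), granular tubule markers (0.50 and -1.21) and duct markers (-0.13 and 0.30). In Tert+ alone 1 macrophage marker was called higher. The T cell markers summed to 313 to 625 CPM in Tert+ RT and 579 to 865 CPM in Tert+ no RT, and to 224 to 381 CPM in Tert- RT and 452 to 783 CPM in Tert- no RT. Macrophage markers summed to 107 to 199 CPM in Tert+ RT and 125 to 285 CPM in Tert+ no RT, and to 263 to 1238 CPM in Tert- RT and 1611 to 1949 CPM in Tert- no RT. None of the B cell, T cell or macrophage markers was at 0 throughout a group. Their part in the splicing genes' change was not tested.

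The rest of the splicing machinery was read from lists written with earlier results of these data known. Among 22 tested genes of other SR-related and speckle proteins, 8 rose, 1 fell and 13 did not pass, with a median log2 fold change of 0.32. As mean ± SD over 8 RT and 6 no RT libraries, Bclaf1, a partner of splicing factors in DNA damage, averaged 194 ± 28.2 CPM in RT and 121 ± 26 CPM in no RT (log2 fold change 0.68 ± 0.12, adjusted p = 0.00262). Ccnl2, a cyclin of speckles, averaged 212 ± 59.3 CPM in RT and 116 ± 31.02 CPM in no RT (log2 fold change 0.85 ± 0.15, adjusted p = 0.00341). Arglu1 averaged 43.1 ± 12.97 CPM in RT and 21.6 ± 3.24 CPM in no RT (log2 fold change 0.98 ± 0.18, adjusted p = 0.00363), and Rsrc2 averaged 159 ± 29.2 CPM in RT and 87.6 ± 26.3 CPM in no RT (log2 fold change 0.87 ± 0.16, adjusted p = 0.00364). These 4 were chosen by the smallest adjusted p in their list. Of 8 other splicing kinases 2 rose and 0 fell (median 0.54): Cdk11b averaged 108 ± 18.3 CPM in RT and 64.9 ± 17.1 CPM in no RT (log2 fold change 0.74 ± 0.16, adjusted p = 0.00677) and Srpk2, an SR protein kinase, averaged 70.8 ± 14.5 CPM in RT and 45.8 ± 7.13 CPM in no RT (log2 fold change 0.63 ± 0.15, adjusted p = 0.012). All 8 had fold changes above 0.

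Other RNA-binding splicing regulators were mixed, with 5 of 26 higher, 2 lower and a median of 0.27. Rbm33 averaged 109 ± 20.9 CPM in RT and 61.1 ± 15.7 CPM in no RT (log2 fold change 0.82 ± 0.15, adjusted p = 0.00337) and Rbm14, also counted as a paraspeckle protein, averaged 45.8 ± 11.2 CPM in RT and 66.5 ± 9.64 CPM in no RT (log2 fold change -0.56 ± 0.14, adjusted p = 0.0174). In the hnRNP family, which often opposes SR proteins, 4 of 27 rose and 2 fell (median 0.17). Hnrnpl averaged 158 ± 23.5 CPM in RT and 82.6 ± 23.5 CPM in no RT (log2 fold change 0.93 ± 0.17, adjusted p = 0.00293), while Hnrnpm averaged 248 ± 28.4 CPM in RT and 333 ± 29.9 CPM in no RT (log2 fold change -0.43 ± 0.09, adjusted p = 0.00788). Exon junction and nonsense-mediated decay genes had 5 of 15 higher and 1 lower (median 0.16), among them the kinase Smg1 at 139.9 ± 31.9 CPM in RT and 67.9 ± 32.2 CPM in no RT (log2 fold change 1.05 ± 0.25, adjusted p = 0.0139). The lists of the spliceosome core had medians below 0, and their calls went in both directions. Of 18 genes listed with the Sm and LSm proteins 0 rose and 1 fell (list median -0.09). The 1 that fell, Snrpa, encodes a protein of the U1 particle and not an Sm or LSm protein. Snrpa averaged 60.7 ± 10.9 CPM in RT and 90.6 ± 7.51 CPM in no RT (log2 fold change -0.58 ± 0.13, adjusted p = 0.00929). Of 15 U2 and branch point factors 1 rose and 2 fell (-0.16); Sf3b1 averaged 833 ± 97.8 CPM in RT and 632 ± 78.5 CPM in no RT (log2 fold change 0.39 ± 0.09, adjusted p = 0.0122) and Sf3b5 54.7 ± 12.6 CPM in RT and 85.4 ± 21.6 CPM in no RT (log2 fold change -0.65 ± 0.17, adjusted p = 0.0232). Of 31 genes listed as tri-snRNP and catalytic 4 rose and 2 fell (-0.12). Prpf39, which is in this list though it is a partner of the U1 particle, averaged 65.9 ± 29.5 CPM in RT and 25.5 ± 7.97 CPM in no RT (log2 fold change 1.35 ± 0.30, adjusted p = 0.0102). Eftud2 averaged 129 ± 18.02 CPM in RT and 185 ± 40.7 CPM in no RT (log2 fold change -0.51 ± 0.12, adjusted p = 0.0121). Of 9 paraspeckle genes 1 rose and 3 fell (-0.15), with Nono at 221 ± 28.04 CPM in RT and 276 ± 19.1 CPM in no RT (log2 fold change -0.32 ± 0.09, adjusted p = 0.0277). The 13.4% of all genes called applies to each of these counts.

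**Figure D4:**
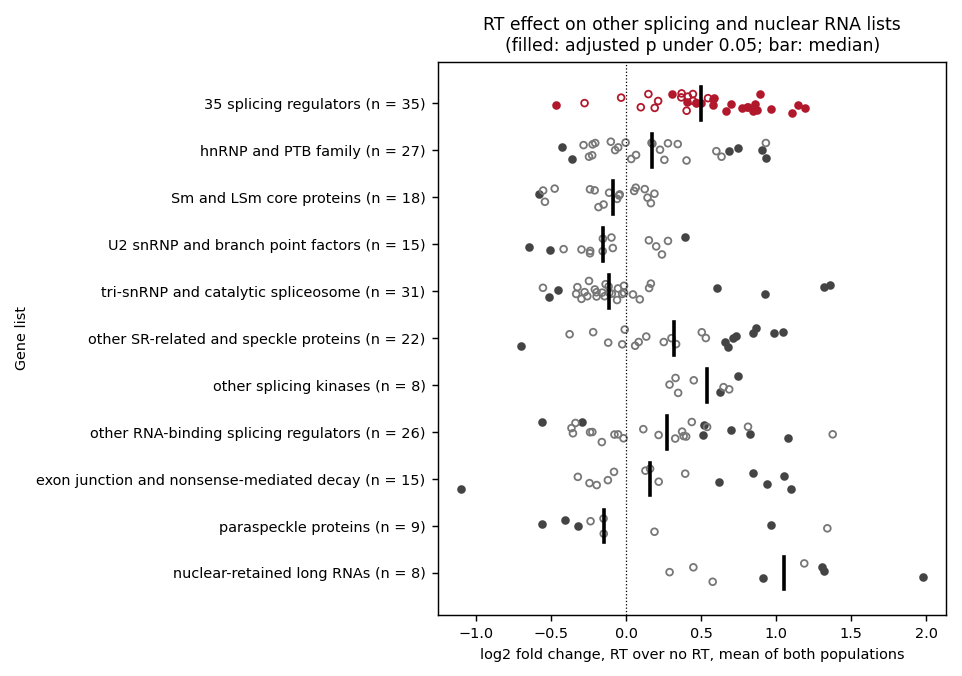
Log2 fold change of RT over no RT (mean of both populations) for each tested gene of the 35 splicing regulators (red) and of 10 other splicing or nuclear RNA lists (grey), with filled points for an adjusted p under 0.05 and a bar at each median. Medians run from -0.16 (U2 and branch point factors) to 1.05 (nuclear-retained long RNAs), with the 35 genes at 0.50.

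The deposited values are counts per gene, so isoforms cannot be separated in them, yet the annotation says which isoforms could add to a count. In GENCODE M21, 32 of the 35 genes (91.4%) had an annotated transcript marked for nonsense-mediated decay, beside 28.4% of 12655 protein-coding genes tested, and 32 (91.4%) had a retained-intron transcript, beside 58.4%. The 35 had a median of 10 annotated transcripts, beside 5 over protein-coding genes tested, and these shares were not matched on transcript number. A median of 46.7% of the exonic bases of the 35 lay outside their protein-coding transcripts, beside 14.9% over protein-coding genes. Clk1 stood highest at 77.9%, with 7 of its 13 transcripts of the retained-intron kind, then Snrnp70 at 75.5% and Tra2a at 74.0%; Ddx17 stood at 0%. The gene lengths in the table equal the union of all annotated exons for 53325 of 54532 genes and for 32 of the 35, so reads from such isoforms may be within the counts. The median share was 49.3% in the 20 genes that rose and 45.1% in the other 15, whereas a transcript marked for decay was annotated for 17 of the 20 and 15 of the 15, and a retained-intron transcript for the same numbers. Across protein-coding genes the percent called higher after RT was 4.21 where no exonic base lay outside coding transcripts, 5.04, 4.90 and 7.01 in the bins between, and 8.26 where more than 50% did. The percent called lower was 7.59 in the bin with none and 8.45 in the bin above 50%, with 8.14 to 9.57 between. These bins were not matched on level or transcript number. Whether such isoforms have a part in the change after RT was not tested.

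**Figure D5:**
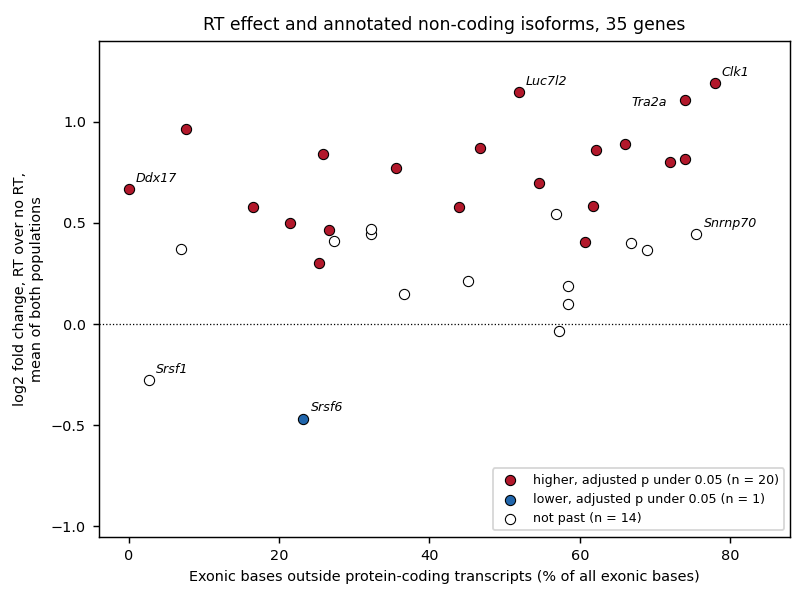
Log2 fold change of RT over no RT (mean of both populations) against the percent of a gene's exonic bases outside protein-coding transcripts, for the 35 genes, coloured by call. Clk1 (77.9%) and Snrnp70 (75.5%) have like shares and log2 fold changes of 1.19 and 0.44; Ddx17, at 0%, is among the genes that passed.

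Counts near other genes are less certain, since the strand setting of the counting is not stated. Of the 35 genes 20 overlap another annotated gene and 16 overlap one on the opposite strand. For 9 the overlapping genes hold more than 5% of the gene's own counts: beside Srsf2 and Clk3 these are Acin1 (1700123O20Rik, 69.4%), Srrm2 (Elob, 46.2%), Srsf4 (A930004J17Rik, 24.5%), Son (Donson, 18.0%), Srsf11 (Gm43362, 10.5%), Ddx17 (Kdelr3, 9.06%) and Luc7l (Gm16580, 6.71%). The overlap is 4 bases each for Srrm2 with Elob and Ddx17 with Kdelr3 and 655 to 4610 bases in the others. The genes named for Srsf4, Srsf11 and Luc7l lie on the same strand as these, where no strand setting separates the reads. How reads shared between paralogs or processed copies were assigned is not stated either.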

How the data were processed

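RNA-seq counts of 14 libraries were used. The authors deposited a single table with raw read counts for every gene and library, and with gene lengths, per the file headers. Per the labels' protocols, libraries were made from 1 ng of RNA by a protocol credited to Picelli; per the submitters' processing notes, HISAT2 and mm10 were used. The counting program, its strand setting and the annotation are not given in the sources used here.

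The 35 genes were matched by gene name, and they, the other gene lists and the naming rule were chosen with earlier results of these data known. The rule gave every library's value for genes past the threshold in any comparison and for the 6 highest per kilobase, and up to 4 genes of each other list; some genes under this rule are not reported here. In R 4.3.3, edgeR 4.0.16 filtered genes with filterByExpr (15915 of 54532 kept) and scaled them with TMM. A robust quasi-likelihood model with 1 term per group was fitted to all 14 libraries; two-sided F tests were adjusted over all genes by the method of Benjamini and Hochberg, with a threshold of 0.05. The script was tested on simulated data. Groups followed the titles, and depth was 5520412 to 15943597 counts, which do not stand for independent molecules. Alternatives were other scalings, filters, DESeq2 1.42.0, limma 3.58.1 voom, fits to the compared groups alone, a replicate block, each library left out and, chosen after seeing the data, 2 or all 3 libraries that stood apart left out. Same-numbered Tert+ and Tert- libraries without RT deviated together (correlations of 0.169 to 0.347, and -0.332 to 0.137 for other numbers), so those numbers were taken to pair the libraries. The model with 1 term per group left these pairs out and took their libraries as independent. P-values for the mean of both populations may therefore be too small. A fit of the RT effects with pairs kept within each RT state was not run. GENCODE M21 supplied transcript classes (54409 identifiers matched, 53499 at the same position). Promoters came from RefSeq and were matched by gene symbol. Gene positions are those of the table.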

Additional observations from a re-analysis of the deposited data

Results flagged for a closer look

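Within a group of 4 libraries, a value was singled out where its gap to the nearest other library was an unusually large share of the group's range (Dixon's test at the 95% level). Of 70 such groups over the 35 genes, 4 were singled out, and chance gives about 3.5 (1 in 20). Acin1 was at 62.0 CPM in Tert+ RT replicate 4, below the 99.3 to 104 CPM of the other Tert+ RT libraries; this library held the lowest value of its group for 19 of the 35 genes. Acin1 was also lowest in Tert- RT replicate 4, at 111 CPM, against 119 to 120.5 CPM in the others. Luc7l was at 94.2 CPM in Tert+ RT replicate 3, below 108 to 109 CPM in the other Tert+ RT libraries. Srsf2 was at 172 CPM in Tert+ RT replicate 3, above 115 to 123 CPM in the others; opposite-strand genes overlap this locus. The groups of 3 libraries without RT were too small for this rule.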

How the results depend on the processing

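Over 747 alternative values of the called genes, direction and call were kept in 606, the call was lost in 141 and 0 reversed. In the mean of both populations the count of the 35 genes past the threshold stayed between 16 and 24, and 16 of its 21 genes kept their call in all 23 settings; Ddx17, Srsf6, Srsf11, Son and Srek1 did not. Where a count among the 35 stands in this section without one over all genes, nothing is read from it. Calls over the 35 genes and over all genes, in that order where both are given, moved as follows. For RT in Tert+ (5 and 315), DESeq2 gave 16 and 1057, the fit to the compared groups alone 2 and 49, leaving out Tert+ RT replicate 4 and Tert- no RT replicate 1 gave 11 and 535, and leaving out Tert+ no RT replicate 1 as well 12 and 955; upper-quartile scaling gave 9 of the 35, a stricter filter 9 and limma voom 482 of all genes. For RT in Tert- (6 and 258), DESeq2 gave 16 and 1198, the compared groups alone 0 and 88, leaving out those 2 libraries 15 and 935, leaving out all 3 gave 17 and 1337, and limma voom 405 of all genes. The difference of RT effects had 12 genes of all in DESeq2 and 2 without the 3 libraries, against 0. For Tert+ against Tert- after RT (2 of all genes), the values were 4 with no filter, 109 with DESeq2, 0 with limma voom, and 1 each with the compared groups alone, the replicate block and the 2 libraries left out. Without RT (6 of all genes) they were 16 with no filter, 74 with DESeq2 and 26 with limma voom. The cause of these moves was not tested. Leaving out 1 library gave, for the 35 genes, 0 to 10 in Tert+ RT, 0 to 15 in Tert- RT, 16 to 22 in the mean and 0 in the other comparisons. Over all genes it gave 21 to 507, 18 to 901 and 1211 to 2516 for the same RT comparisons, 0 to 1 for their difference, 0 to 7 after RT and 1 to 13 without RT for Tert+ against Tert-. Each of the 6 no RT libraries correlated best with the library of its own number in the other population. After RT 6 of 8 did, with correlations from 0.0378 to 0.108 and 2 of 4 pairs over 0.1, and between RT and no RT they ran from -0.117 to 0.0602, so there the libraries share only a number. With the replicate block 5, 5 and 19 of the 35 genes passed in Tert+, Tert- and the mean, and 0 in the others. Without RT, Tert+ against Tert- had 7 genes of all, against 6. For the RT comparisons this block grouped all libraries of a number, RT and no RT alike, so it does not stand for the pairs alone. The number of libraries, 3 or 4 a group, limits what the separate populations could show.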
